A study of Mus musculus with 10 samples.

Results

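Messenger RNA of 10 extracellular matrix genes that are not collagens was followed through 10 mouse RNA-seq libraries of pluripotent cells and fibroblasts. The genes are Fn1, Fbn1, Lox, Tnc, Thbs1, Sparc, Postn, Dcn, Lum and Aspn. They were taken by gene symbol from a list of fibroblast matrix genes, they make up 10 of the 54532 genes in the deposited tables, and each symbol matched 1 gene ID. Each level in a pluripotent library was also written as a percent of the level in mouse embryonic fibroblasts (MEF). The study compared post-implantation epiblast stem cells (EpiSC), including haploid cells labelled as p53 knockouts (p53-KO), with related pluripotent cells and with fibroblasts, all of mouse strain 129SV. EpiSC came as 2 haploid libraries labelled p53-KO (haEpi1_1 and haEpi5_1), 2 wild-type diploid libraries (Epi_fema and Epi_male) and 1 diploid p53-KO library. Epiblast-like cells (EpiLC) came as 1 haploid p53-KO and 1 haploid wild-type library. Embryonic stem cells (ESC) came as 1 haploid and 1 diploid wild-type library, and MEF as 1 wild-type diploid library. The 2 genotypes of EpiSC named first were the only ones with more than 1 library. The names Epi_fema and Epi_male read as a female and a male source, but no label states sex. The labels also do not say whether the libraries of a genotype came from separate lines or cultures. P-values here measure only how far these libraries differ, and how much of that spread is technical is not known. How the p53-KO allele was made, the age of the embryos behind the MEF, and the growth conditions are not given in the sources used here.

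The extracellular matrix is the protein scaffold that cells secrete around themselves, and fibroblasts are its main makers in connective tissue. Fibronectin (Fn1) and fibrillin-1 (Fbn1) assemble into fibrils, and lysyl oxidase (Lox) crosslinks collagen and elastin. Tenascin-C (Tnc), thrombospondin-1 (Thbs1), SPARC (Sparc) and periostin (Postn) are matricellular proteins, which sit in the matrix and modulate how cells attach and respond to growth factors more than they bear load. Decorin (Dcn), lumican (Lum) and asporin (Aspn) are small leucine-rich proteoglycans or their close relatives that bind collagen fibrils. Fibronectin is also made by early embryonic cells, and SPARC by several cell types besides fibroblasts.

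Promoters were available for 5 of the 10 genes in a table of RefSeq windows (GRCm38.p6) that run from 250 bases before to 50 bases after a gene's start. Windows are printed for 3 genes whose RefSeq start lies at or within a few bases of the gene start in the count table. Tnc and Postn are shown because their levels were among those that followed each other most closely over the pluripotent libraries, and Aspn because it did not follow them. Capitals mark matches, on either strand, to any of 5 motifs searched: the AP-1 motif TGANTCA, the motif of TEAD factors GGAATG, the motif of SMAD factors CAGACA, the GC box CCGCCC and the TATA box TATAAA. The Tnc window is chr4:64046966-64047265 on the minus strand, the Postn window chr3:54360857-54361156 on the plus strand and the Aspn window chr13:49544193-49544492 on the plus strand.
Tnc: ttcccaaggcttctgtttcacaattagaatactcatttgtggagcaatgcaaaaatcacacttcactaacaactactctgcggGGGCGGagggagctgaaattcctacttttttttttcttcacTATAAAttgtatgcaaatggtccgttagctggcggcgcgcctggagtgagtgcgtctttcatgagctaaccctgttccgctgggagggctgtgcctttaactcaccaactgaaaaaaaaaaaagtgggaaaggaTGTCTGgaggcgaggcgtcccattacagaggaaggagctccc
Postn: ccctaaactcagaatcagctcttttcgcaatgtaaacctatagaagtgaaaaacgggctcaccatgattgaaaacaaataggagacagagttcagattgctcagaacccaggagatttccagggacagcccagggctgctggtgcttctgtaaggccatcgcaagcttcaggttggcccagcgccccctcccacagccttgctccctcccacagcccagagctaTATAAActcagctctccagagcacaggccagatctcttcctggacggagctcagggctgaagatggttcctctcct
Aspn: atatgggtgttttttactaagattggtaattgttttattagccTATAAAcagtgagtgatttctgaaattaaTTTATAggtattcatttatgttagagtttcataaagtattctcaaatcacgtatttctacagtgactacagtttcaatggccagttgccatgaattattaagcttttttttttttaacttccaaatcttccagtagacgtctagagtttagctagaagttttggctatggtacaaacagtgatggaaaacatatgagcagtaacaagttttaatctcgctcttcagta
Of the 7 windows the table holds for these 5 genes, 4 had TATAAA (the 3 printed and another of Tnc), and those of Fbn1 and Sparc and another of Postn had none, beside 13.6% of the 32851 promoters of the table. In Postn it began at position -26 from the start, in Tnc at -126, and in Aspn at -207 and -178. Tnc also held CCGCCC at -167 (35.7% of all promoters hold it) and CAGACA at 9 (21.0%). The motifs of AP-1 (in 7.81% of all promoters) and TEAD factors (14.7%) were not present in any of the 7. GC content was 47.3% in the Tnc window, 53% in Postn and 31.0% in Aspn, beside a median of 52.7% over all promoters. These matches describe the letters of the windows, and binding was not measured.

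The libraries held 15862113 to 18814003 counts each. Levels below are CPM (counts scaled to library size) with TMM factors, on which 3 counts, the limit used here for a gene with 0 counts, corresponded to 0.150 to 0.194 CPM, unless FPKM, which also divides by exon length, is named. No 2 libraries were alike within sampling noise (lowest chi-square per degree of freedom 38.9). Trp53, the gene of p53, was at 2.17 to 61.8 CPM in the 4 libraries labelled p53-KO and at 28.5 to 375 CPM in the 6 labelled wild type, so its RNA did not separate the labels. The MEF library carried fibroblast markers (Prrx1 704 CPM, Pdgfra 771 CPM, Thy1 480 CPM) and 22.0 CPM summed over 16 pluripotency markers, of which 8 were at 0. The fibroblast markers named are high members of a list of 18 fibroblast identity genes. The median of that list in MEF was 123 CPM, and its members S100a4 and Meox2 were at 4.14 and 14.9 CPM. The MEF library also held macrophage transcripts, with 885 CPM of Lyz2. Those pluripotency markers summed to 2970 to 6300 CPM in the other 9 libraries.

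In MEF all 10 matrix genes were abundant: the lowest, Lum, was at 250 CPM, a level that 799 genes reached in that library. Together they made up 2.16% of all counts in MEF and 0.0430% to 0.638% in the pluripotent libraries. Per length of transcript, Sparc led in MEF at 1250 FPKM, followed by Fn1 at 648 FPKM, Thbs1 at 524 FPKM and Lox at 446 FPKM. Postn (314 FPKM), Tnc (296 FPKM) and Fbn1 (189 FPKM) came next, and the leucine-rich members Aspn (122 FPKM), Lum (106 FPKM) and Dcn (75.6 FPKM) came last. MEF is a single library, so neighbours in this order have no replicate check.

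**Figure D1:**
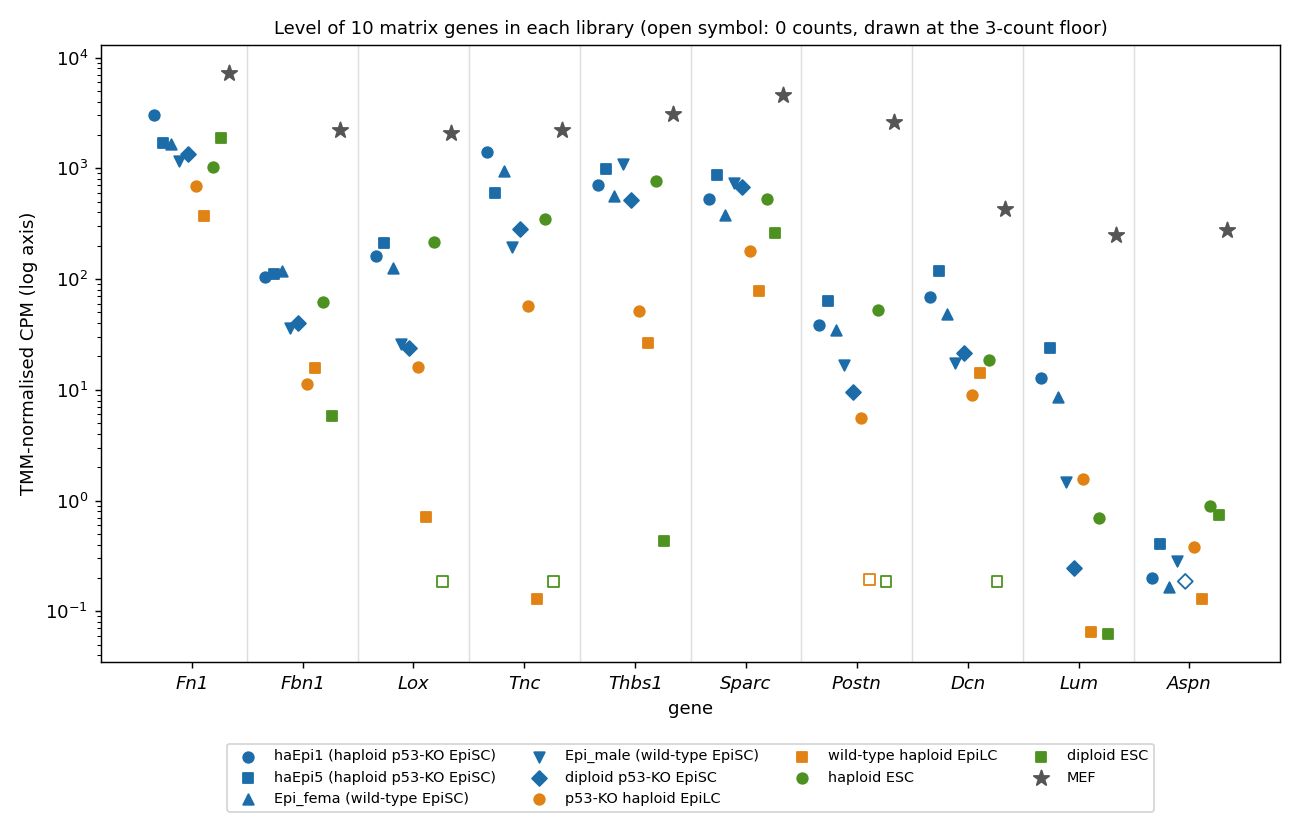
Level of each of the 10 matrix genes (x axis) in each of the 10 libraries, as TMM-normalised CPM on a log axis. Colours mark the cell type and symbols the library, and an open symbol is a library with 0 counts drawn at its 3-count limit; MEF is the highest library for every gene, and Aspn stays below 1 CPM in all 9 pluripotent libraries.

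Of the fibril glycoproteins, Fn1 (ENSMUSG00000026193, mm10 chr1:71585520-71653200, minus strand) was the most even. In EpiSC it was at 3010 CPM in haEpi1_1, 1710 in haEpi5_1, 1660 in Epi_fema, 1160 in Epi_male and 1350 in the diploid p53-KO library. In the other cells it was at 696 CPM in p53-KO and 370 in wild-type EpiLC, 1020 in haploid and 1880 in diploid ESC, and 7300 in MEF. Every pluripotent library thus held Fn1, the EpiLC libraries least, and the diploid ESC library lay inside the EpiSC range. Fbn1 (ENSMUSG00000027204, chr2:125300594-125507993, minus strand) was at 105, 110, 118, 36.1 and 40.4 CPM in the same order of EpiSC libraries. It was at 11.3 and 15.6 CPM in p53-KO and wild-type EpiLC, 62.3 and 5.84 in haploid and diploid ESC, and 2210 in MEF. For Fbn1 the diploid ESC library was the lowest of all and the haploid ESC library lay inside the EpiSC range. The file's Fbn1 exons share 2442 bases (20.14%) with Gm9913 on the opposite strand, which had 0 to 29 counts per library.

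Lox (ENSMUSG00000024529, chr18:52516069-52529867, minus strand), the crosslinking enzyme, split the EpiSC libraries. It was at 163 CPM in haEpi1_1, 211 in haEpi5_1 and 126 in Epi_fema, against 26.1 in Epi_male and 23.9 in the diploid p53-KO library. It was at 16.2 CPM in p53-KO and 0.71 in wild-type EpiLC, 217 in haploid ESC, and 2070 in MEF. In diploid ESC it had 0 counts, which allows up to 0.186 CPM. The haploid ESC library was therefore the highest pluripotent library for Lox, and the diploid ESC library the lowest.

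Of the matricellular genes, Tnc (ENSMUSG00000028364, chr4:63959785-64047015, minus strand) was at 1390 CPM in haEpi1_1, 600 in haEpi5_1, 937 in Epi_fema, 195 in Epi_male and 282 in diploid p53-KO EpiSC. It was at 57.3 CPM in p53-KO EpiLC and 351 in haploid ESC, and 2220 in MEF. Wild-type EpiLC had 2 counts of Tnc (0.129 CPM) and diploid ESC had 0. Tnc was thus high in all EpiSC libraries and at or under the 3-count limit in the wild-type EpiLC and diploid ESC libraries. Thbs1 (ENSMUSG00000040152, chr2:118111876-118127133, plus strand) was at 706, 980, 557, 1090 and 518 CPM in the 5 EpiSC libraries. It was at 51.4 CPM in p53-KO and 26.6 in wild-type EpiLC, 764 in haploid and 0.435 in diploid ESC, and 3070 in MEF. Unlike Lox and Tnc, Thbs1 was highest in Epi_male among EpiSC, and the diploid ESC library held 7 counts of it.

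Sparc (ENSMUSG00000018593, chr11:55394500-55423183, minus strand) was at 528, 873, 378, 736 and 679 CPM in the EpiSC libraries. It was at 180 CPM in p53-KO and 77.4 in wild-type EpiLC, 531 in haploid and 259 in diploid ESC, and 4550 in MEF. Like Fn1, Sparc was present in every library, with EpiLC lowest. Postn (ENSMUSG00000027750, chr3:54361109-54391037, plus strand) was at 38.6, 63.8, 34.7, 16.6 and 9.55 CPM in the EpiSC libraries. It was at 5.6 CPM in p53-KO EpiLC and 52.9 in haploid ESC, against 2640 in MEF, and had 0 counts in wild-type EpiLC and in diploid ESC. The haploid ESC library lay inside the EpiSC range for Postn, and the other ESC library held none.

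Among the leucine-rich members, Dcn (ENSMUSG00000019929, chr10:97479609-97518143, plus strand) was at 68.6, 117, 48.2, 17.3 and 21.6 CPM in the EpiSC libraries. It was at 9 CPM in p53-KO and 14.3 in wild-type EpiLC, 18.6 in haploid ESC and 0 in diploid ESC, and 426 in MEF. Its neighbour Lum (ENSMUSG00000036446, chr10:97565128-97572703, plus strand) was at 12.9, 23.6, 8.53, 1.47 and 0.248 CPM in EpiSC. Lum was at 1.57 CPM in p53-KO EpiLC and 0.699 in haploid ESC, had 1 count in wild-type EpiLC and in diploid ESC, and was at 250 CPM in MEF. Both genes were highest in haEpi5_1, and for Lum the highest EpiSC library was 95.0 times the lowest.

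Aspn (ENSMUSG00000021388, chr13:49544443-49567565, plus strand) was barely present outside MEF. It had 4, 7, 3, 5 and 0 counts in the EpiSC libraries, 6 and 2 in p53-KO and wild-type EpiLC, and 18 and 12 in haploid and diploid ESC. These counts are at most 0.899 CPM, beside 277 CPM in MEF. Both ESC libraries lay above all 7 EpiSC and EpiLC libraries. Aspn exons share 7 bases with Cenpp on the opposite strand, which had 96 to 261 counts per library, and nothing in the sources used here says whether counting used the strand.

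Read as a percent of the MEF level, the genes did not move as 1 block. Within haEpi1_1, Tnc stood at 62.8% of MEF and Fn1 at 41.3%, while Postn stood at 1.46% and Aspn at 0.0726%, an 864-fold span. In MEF itself Postn and Tnc were at 314 and 296 FPKM. Thbs1 was at 16.9% to 35.5% in EpiSC and 24.9% in haploid ESC. Sparc was at 8.31% to 19.2% in EpiSC and at 11.7% and 5.68% in haploid and diploid ESC. Fbn1 never passed 5.32%, Postn never passed 2.42% and Aspn never passed 0.325% in any pluripotent library.

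The median over the 10 genes was 9.75% of MEF in haEpi1_1, 14.7% in haEpi5_1 and 7.19% in Epi_fema. It was 2.85% in Epi_male and 3.45% in diploid p53-KO EpiSC, so the EpiSC libraries differed among themselves. The haploid ESC library, at 7.43%, lay between the EpiSC libraries, whereas p53-KO EpiLC had 1.23%, wild-type EpiLC 0.377% and diploid ESC 0.0195%. In diploid ESC 4 of the 10 genes (Lox, Tnc, Postn and Dcn) were at 0 while Fn1 was at 25.7%, its second highest value after haEpi1_1. Over the 799 genes of at least 250 CPM in MEF, the median percent was 49.5% to 67.8% in these libraries. The MEF level is that of 1 library and has no replicate check, and in bulk RNA fewer cells of a type cannot be told apart from less RNA per cell.

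**Figure D2:**
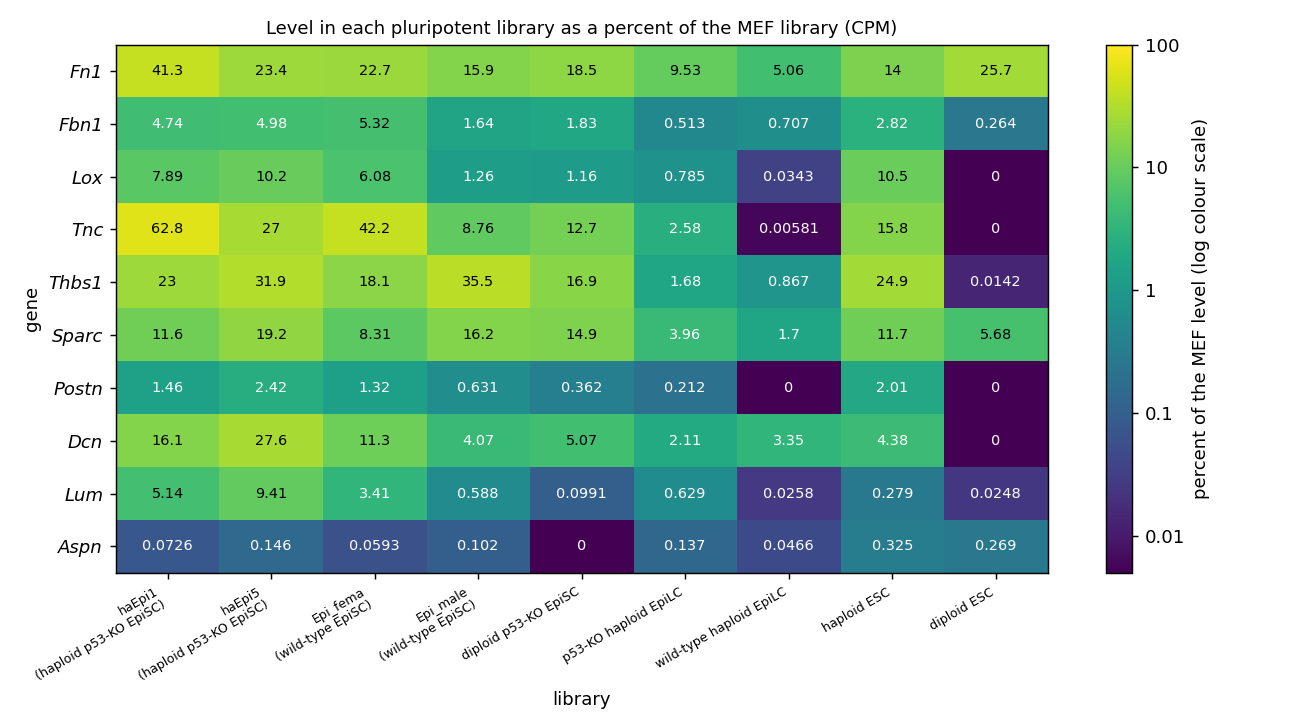
Level of each gene (rows) in each of the 9 pluripotent libraries (columns) as a percent of its CPM in the MEF library, with a log colour scale and the percent written in each cell. The highest percent is that of Tnc in haEpi1_1 (62.8%), Aspn lies at or below 0.325% throughout, and Lox, Tnc, Postn and Dcn are 0 in diploid ESC.

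Against MEF, all 10 genes were lower in each of the 5 EpiSC libraries, 2 EpiLC libraries and 2 ESC libraries. The genes were taken as fibroblast matrix genes with earlier results known, and all were at 250 CPM or more in MEF. Lower levels than in MEF were thus partly set by the choice, in each of the 3 comparisons with MEF. The shares over all genes given beside these counts include genes low in MEF. The share of genes tested that lay below MEF without overlap was 30.5% for EpiSC, 40.2% for EpiLC and 38.9% for ESC. In EpiSC, 6 of 10 passed edgeR's quasi-likelihood test (adjusted p under 0.05 over 21104 genes tested), beside 14.7% of genes called in either direction and 8.79% called lower. The 6 were Fn1 (log2 fold change -2.06 ± 0.49 SE, adjusted p = 0.0205), Fbn1 (-4.78 ± 0.78, 0.00440), Sparc (-2.85 ± 0.46, 0.00411), Postn (-6.35 ± 1.56, 0.0240), Lum (-4.76 ± 1.31, 0.0372) and Aspn (-10.32 ± 0.61, 7.89e-05). Fn1, Fbn1, Sparc and Aspn stayed called when each of the 9 other libraries was left out in turn, while Lum was called in 6 of those 9 fits and Postn in 5. Tnc (-1.73 ± 2.06, 0.629), Thbs1 (-2.02 ± 1.51, 0.416), Lox (-4.25 ± 1.72, 0.127) and Dcn (-2.98 ± 1.24, 0.137) did not pass. Leaving out either ESC library raised the count to 9, with Tnc the gene not called, and leaving out haEpi1_1, Epi_fema or Epi_male lowered it to 4. The share of all genes called lower was 6.42% to 10.4% over these fits. DESeq2 called 4, beside 10.6% of all genes called lower, without Postn (adjusted p = 0.0997) and Lum (0.0826), and limma on log2(FPKM + 0.1) called 5, beside 9.58%, without Lum (0.0696).

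In EpiLC against MEF, 8 of 10 passed, all lower, beside 25.8% of genes called in either direction and 13.9% called lower. Lox (-7.94 ± 2.68, adjusted p = 0.0537, edgeR) and Tnc (-6.29 ± 2.79, 0.121) did not pass. The count was 4 without the wild-type EpiLC library (Fn1, Fbn1, Sparc and Aspn), beside 6.52% of all genes called lower. DESeq2 called 8, beside 16.9% of all genes called lower, with Lox and without Dcn (adjusted p = 0.0657), and limma on log2(FPKM + 0.1) called 6, beside 16.8% of all genes called lower, without Thbs1 (0.118) and Dcn (0.0538). In ESC against MEF, 6 of 10 passed, all lower, beside 21.3% in either direction and 12.0% called lower: Fn1, Fbn1, Sparc, Dcn, Lum and Aspn. The count was 9 without the haploid ESC library, with Fn1 not called, beside 12.0% of all genes called lower, and 4 without the diploid ESC library, beside 5.6%. DESeq2 called 5, beside 15.1% of all genes called lower, without Dcn (adjusted p = 0.0553). The MEF arm of these tests is 1 library and takes its spread from the other cell types. The 3 comparisons share that library.

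EpiSC stood above EpiLC for most of the matrix genes. For 8 of the 10 (Lum and Aspn aside) every EpiSC library was higher than both EpiLC libraries, beside 16.2% of all genes tested that lay above without overlap. By edgeR's test 2 passed, both higher in EpiSC, beside 9.65% of genes called in either direction and 3.77% called higher. They were Fn1, at 1780 ± 727 CPM (SD, n = 5) in EpiSC and 533 ± 231 (SD, n = 2) in EpiLC, and Sparc, at 639 ± 191 (SD, n = 5) and 129 ± 72.9 (SD, n = 2). An SD over a cell type covers libraries that differ in p53 label, ploidy or both, so it is not a replicate spread. The log2 fold changes were 1.72 ± 0.47 SE for Fn1 (adjusted p = 0.0473, edgeR) and 2.29 ± 0.48 SE for Sparc (adjusted p = 0.0181). Tnc (4.56 ± 2.35, adjusted p = 0.239), Thbs1 (4.29 ± 1.72, 0.140) and Lox (3.69 ± 2.02, 0.266) had larger estimates with wider errors. The median over the 10 genes was 3.03 on the log2 scale, beside 0.00695 over all genes tested.

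The Sparc call was kept in 9 of 10 fits that left out 1 library, and the Fn1 call in 4 of 10. Without the wild-type EpiLC library neither was called (Sparc 1.82, adjusted p = 0.111; Fn1 1.35, 0.237). With p53 label and ploidy as terms in the edgeR fit, Fn1 was not called (1.66, adjusted p = 0.096), while Sparc and Fbn1 (3.84, 0.0249) were, beside 2.89% of all genes called higher. When either ESC library was left out 4 genes were called, Fbn1 and Thbs1 joining Fn1 and Sparc, beside 5.82% of all genes called higher without the haploid and 5.77% without the diploid ESC library. Without haEpi1_1, haEpi5_1, Epi_fema, the diploid p53-KO EpiSC or the p53-KO EpiLC library only Sparc was called. DESeq2 called 4, beside 8.76% of all genes called higher, and edgeR without the filter on low counts called 8, beside 4.16%.

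**Figure D3:**
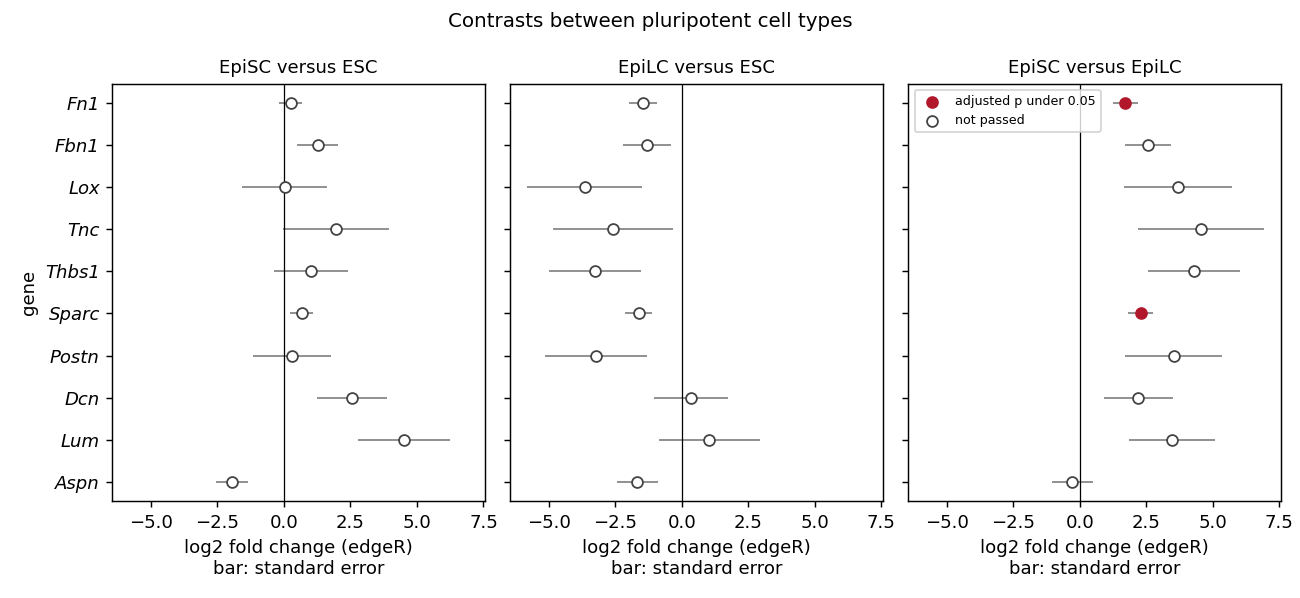
edgeR log2 fold change (x axis) with its standard error (bar) for each matrix gene (y axis) in 3 contrasts of pluripotent cell types. The standard error is worked back from the F test and is approximate. Red points have an adjusted p under 0.05 over all genes tested. Fn1 and Sparc pass in EpiSC versus EpiLC, no gene passes in the other 2 contrasts, and the widest bars belong to Tnc, Lox, Postn and Lum.

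Between EpiSC and ESC no matrix gene passed. edgeR called 0 of 10, beside 16.9% of all genes tested. At an unadjusted p under 0.05 there were 2 of 10 (Lum and Aspn), beside 31.2% of all genes. DESeq2 called the same 2, beside 18.9% of all genes, and limma on log2(FPKM + 1) or log2(FPKM + 0.1) called 0. Lum was at 9.34 ± 9.49 CPM (SD, n = 5) in EpiSC and 0.381 ± 0.450 (SD, n = 2) in ESC, a log2 fold change of 4.52 ± 1.74 SE (edgeR adjusted p = 0.105). Aspn had a log2 fold change of -1.94 ± 0.61 (edgeR adjusted p = 0.0549), and it was the only gene of the 10 whose groups did not overlap, beside 19% of genes lower in EpiSC without overlap. Lox, Thbs1, Postn and Tnc had estimates of 0.03 to 1.97 with standard errors of 1.40 to 1.99. The median over the 10 genes was 0.85, beside -0.0222 over all genes.

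The 2 ESC libraries stood far apart for most of the matrix genes. In haploid ESC, Tnc had 7024 counts and Lox 4347, against 0 of each in diploid ESC, which makes them at least 1880-fold and 1160-fold higher against the limit of 3 counts. Thbs1 had 15292 counts against 7 and was 1760-fold higher (95% counting interval 852 to 4370). Postn (1059 counts against 0) was at least 284-fold and Dcn (373 against 0) at least 99.9-fold higher. Fbn1 was 10.7-fold higher (8.65 to 13.3) and Sparc 2.05-fold (1.98 to 2.13), whereas Fn1 was 1.84-fold lower in the haploid library. Aspn (18 and 12 counts) had a ratio of 1.21 (0.549 to 2.74). These intervals cover counting error only, and with 1 library of each ploidy they compare libraries and not ploidies.

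When the haploid ESC library was left out, 5 of 10 genes passed in EpiSC against ESC: Fbn1 (adjusted p = 0.0212, edgeR), Lox (0.0416), Tnc (0.0449), Thbs1 (0.000450) and Dcn (0.0101), all higher in EpiSC. Of all 20416 genes tested in that fit 7.07% were called higher. The single ESC library left is then assumed to vary like the other groups. When the diploid ESC library was left out, none passed, and the estimates for Lox (-1.01), Postn (-0.72) and Thbs1 (-0.02) turned negative. Aspn was called when haEpi5_1 or the diploid p53-KO EpiSC library was left out.

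**Figure D4:**
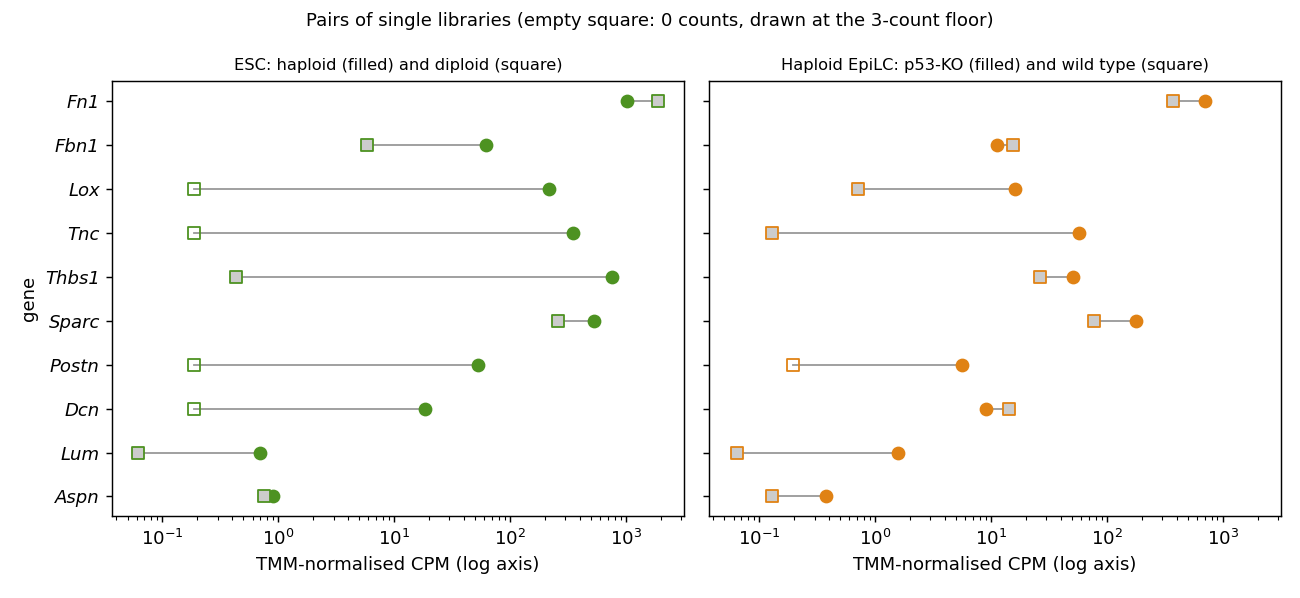
TMM-normalised CPM on a log axis (x) for each matrix gene (y) in 2 pairs of single libraries: haploid (circle) and diploid (square) ESC on the left, and p53-KO (circle) and wild-type (square) haploid EpiLC on the right. An empty square is 0 counts drawn at the 3-count limit; the longest lines are those of Tnc, Lox, Thbs1 and Postn in ESC and of Tnc in EpiLC, and the line for Fn1 runs the other way in ESC.

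Between EpiLC and ESC none of the 10 genes passed the test. edgeR called 0 of 10, beside 0.426% of all genes tested (90 genes). On leaving out 1 library this number of genes ran from 1 without the diploid ESC library to 216 without the p53-KO EpiLC library. At an unadjusted p under 0.05 there were 2 of 10 (Fn1 and Sparc), beside 14.4% of all genes, and DESeq2 and both limma fits called 0. Fn1 (log2 fold change -1.46 ± 0.52 SE, edgeR adjusted p = 0.259), Sparc (-1.61 ± 0.51, 0.212) and Aspn (-1.67 ± 0.78, 0.368) were lower in both EpiLC libraries than in both ESC libraries. Genes lower in EpiLC without overlap made up 20.6% of all genes tested. Without the haploid ESC library Thbs1 was called, at 6.42 (adjusted p = 0.0244), beside 0.524% of all genes, and its estimate over all libraries was -3.26.

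The 2 haploid EpiLC libraries also differed for some matrix genes. Tnc had 910 counts in the p53-KO library and 2 in the wild-type library, a 444-fold ratio (123 to 3670), and Lox 258 against 11, a 22.9-fold ratio (12.6 to 46.4). Postn (89 counts against 0) was at least 28.9-fold higher in the p53-KO library. Fn1, Thbs1 and Sparc were 1.88-fold, 1.93-fold and 2.33-fold higher there, while Fbn1 was 1.38-fold and Dcn 1.58-fold higher in the wild-type library. With 1 library of each genotype these ratios have no replicate check.

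Between haploid p53-KO and wild-type diploid EpiSC no matrix gene passed either. edgeR called 0 of the 9 genes tested (Aspn was too low to be tested), and 0% of all 18153 genes tested. At an unadjusted p under 0.05 there was 1 of 9 (Dcn), beside 3.53% of all genes (641). DESeq2 called 0 of the 10 and 21 genes in all, and limma 0. Fn1, Lox, Postn, Dcn and Lum were higher in both haploid libraries than in both wild-type libraries, beside 16.4% of all genes above without overlap. Dcn was at 93.0 ± 34.5 CPM (SD, n = 2) against 32.8 ± 21.8 (SD, n = 2), with a log2 fold change of 1.51 ± 0.52 SE and an edgeR adjusted p = 0.976. Lum was at 18.2 ± 7.57 CPM against 5.00 ± 4.99 (SD, n = 2 each; 1.87 ± 0.81, 0.976). Lox was at 187 ± 33.6 against 75.9 ± 70.5 CPM (SD, n = 2 each; 1.31 ± 0.65, 0.976).

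The wild-type libraries stood apart for Lox (126 CPM in Epi_fema and 26.1 in Epi_male). Without Epi_fema, Lox (2.85, adjusted p = 0.0217), Dcn (2.43, 0.0481) and Lum (3.63, 0.0473) were called by edgeR, beside 0.552% of all genes called higher and 144 genes called in all. The wild-type arm of that fit is Epi_male alone, and the spread rests on the 2 haploid libraries. Without Epi_male no matrix gene was called, and 9 genes in all were. Thbs1 (0.04 ± 0.38, adjusted p = 0.999) and Sparc (0.34 ± 0.41, 0.976) had small estimates. In this comparison genotype and ploidy cannot be told apart. The diploid p53-KO EpiSC library lay below both wild-type libraries for Lox, Thbs1, Postn, Lum and Aspn. It lay between them for the other 5 genes. The share of all genes that lay below both was not computed, so these positions have no background beside them. The Lum level, 0.0496 times the wild-type mean, rests on 4 counts, and Aspn had 0 counts against 3 and 5. Sparc was at 1.22 times the wild-type mean.

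Over the 9 pluripotent libraries, 7 of the genes had like profiles. Pearson's r of log2 CPM with the median profile of the 10 genes was 0.99 for Lox, 0.95 for Tnc, Thbs1 and Postn, 0.93 for Fbn1, 0.91 for Dcn and 0.78 for Lum. It was 0.62 for Sparc, 0.31 for Fn1 and -0.17 for Aspn. The closest pairs were Lox with Postn and Tnc with Postn, each at 0.98. These are descriptions over 9 libraries that share cell types, and each gene is itself part of the median. The high libraries of the median profile were haEpi1_1, haEpi5_1, Epi_fema and haploid ESC, and the low ones wild-type EpiLC and diploid ESC. Single genes departed from it. Thbs1 was highest in Epi_male (1090 CPM), and Lum in haploid ESC (0.699 CPM) lay below Epi_male (1.47 CPM). Fbn1 and Dcn were higher in wild-type than in p53-KO EpiLC.

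Other genes with a mean of at least 5 CPM numbered 11629, and predicted and clone-named genes among them were set aside. Of the rest, the 10 with the highest r to that profile began with Thbs2 (0.988), Mical2 (0.985) and Crtc3 (0.980). Then came Col6a1 and Cd44 (0.978 each), Slc35e4 (0.977), Aebp1 (0.975), and Ptgs2, Rnf11 and Col12a1 (0.972 each). Thbs2 is a second thrombospondin, Col6a1 and Col12a1 are collagen chains, and Cd44 is a receptor for the matrix polysaccharide hyaluronan. Their levels relative to MEF differed widely. Thbs2 never passed 3.69% of MEF and Col6a1 never passed 1.91%, whereas Cd44 reached 99.2%. Ptgs2, the inducible cyclooxygenase, reached 1490% of MEF, at 212 CPM in haEpi1_1 against 14.2 CPM in MEF.

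Other genes of the matrix were counted from lists of collagens, elastic fibre genes, further matricellular genes, further proteoglycans, crosslinking and collagen-processing enzymes, receptors and proteases. Between EpiSC and EpiLC, 6 of 16 enzymes rose in EpiSC and none fell. They included Loxl2, a relative of Lox (134 ± 91.4 CPM, SD, n = 5, against 4.36 ± 0.239, SD, n = 2; log2 fold change 4.92 ± 0.97 SE, edgeR adjusted p = 0.0149). Serpinh1, the collagen chaperone, changed by 3.39 ± 0.57 (adjusted p = 0.00812) and P4ha1, a collagen prolyl hydroxylase subunit, by 2.16 ± 0.48 (0.0237). Of 17 receptors 5 rose and none fell, with Itgb8, Cd47 and Itga3 leading (5.44 ± 0.84, 2.82 ± 0.47 and 1.88 ± 0.39). Of 15 elastic fibre genes 4 rose (Mfap2, Ltbp3 and Efemp2 among them), and of 10 collagens 1 did (Col5a1, 2.89 ± 0.62, adjusted p = 0.0200). Of 17 matricellular genes beside the 4 described above, Tgfbi and Fstl1 rose and Smoc1 fell. Of 10 further proteoglycans Vcan rose, and of 16 proteases and inhibitors Mmp14 did. Over all genes tested 3.77% rose. DESeq2 called more of these genes higher in EpiSC than edgeR did: 12 enzymes, 12 receptors, 6 elastic fibre genes, 7 collagens, 6 further matricellular genes and 7 proteases or inhibitors, beside 8.76% of all genes. It called 1 further proteoglycan, as edgeR did.

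Between EpiSC and ESC, where 6.86% of all genes tested were called higher, the receptors again had 5 of 17 higher in EpiSC and none lower, led by Itgb8 (23.0 ± 8.90 CPM, SD, n = 5, against 0.0250 ± 0.0353, SD, n = 2). Itga3, an integrin subunit that pairs into a laminin receptor, was at 578 ± 185 against 102 ± 44.3 CPM (log2 fold change 2.49 ± 0.41 SE, edgeR adjusted p = 0.00387). Elastic fibre genes had 3 of 15 higher (Efemp1, Mfap2 and Ltbp1), enzymes 2 of 16 (Serpinh1 and Plod3) and proteases 3 of 16 (Plau, Mmp2 and Mmp14). Further matricellular genes had 2 higher and 2 lower of 17, Tnn and Smoc1 being lower. DESeq2 called 6 receptors, 3 elastic fibre genes, 2 enzymes, 4 proteases and 4 further matricellular genes higher, beside 9.18% of all genes. Collagens and further proteoglycans had 0 of 10 each by edgeR, with 0 and 5 at an unadjusted p under 0.05; DESeq2 called 0 and 1, and limma on log2(FPKM + 1) 0 and 1. Between EpiLC and ESC edgeR and limma called 0 in each of these 7 lists (1 to 10 per list at an unadjusted p under 0.05 by edgeR), while DESeq2 called 3 further matricellular genes, 3 enzymes, 1 receptor and 1 protease or inhibitor. Between haploid p53-KO and wild-type EpiSC edgeR, DESeq2 and limma called 0 in each (1 to 4 per list at an unadjusted p under 0.05 by edgeR).

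**Figure D5:**
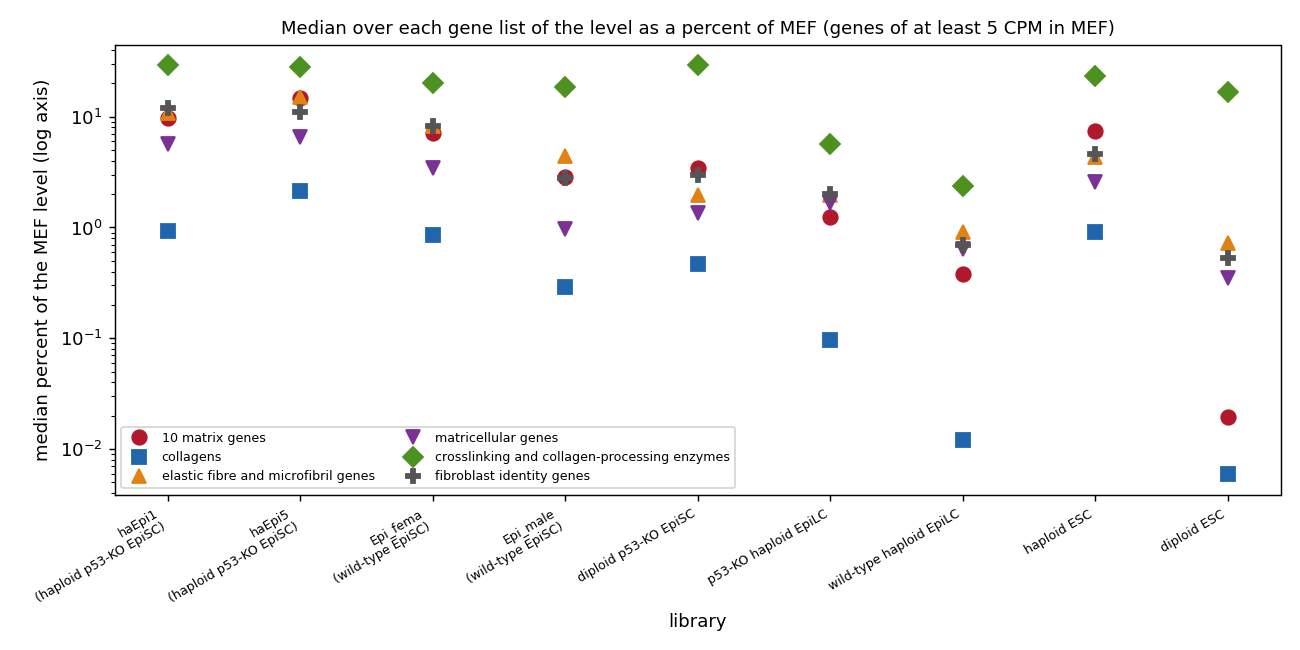
Median over each gene list of the level as a percent of MEF, on a log axis (y), in each of the 9 pluripotent libraries (x), for the 10 matrix genes, 4 other matrix lists and the fibroblast identity genes; only genes of at least 5 CPM in MEF enter. Crosslinking and collagen-processing enzymes lie highest and collagens lowest in each library, and the 10 matrix genes lie near the fibroblast identity genes in EpiSC. In diploid ESC the medians of the 10 matrix genes and of the collagens rest on few counts.

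By the median over each list, the 10 matrix genes stood higher relative to MEF than the collagens in every pluripotent library. Single genes did not all do so: Aspn was at 0.0726% in haEpi1_1. The median percent of MEF over 10 collagens was 0.928% in haEpi1_1, 2.15% in haEpi5_1, 0.855% in Epi_fema, 0.291% in Epi_male and 0.466% in diploid p53-KO EpiSC. It was 0.908% in haploid ESC, 0.00592% in diploid ESC, 0.0959% in p53-KO EpiLC and 0.0120% in wild-type EpiLC. The crosslinking and collagen-processing enzymes stood higher than either, at 18.5% to 29.2% in EpiSC, 23.3% and 16.6% in haploid and diploid ESC, and 5.61% and 2.39% in p53-KO and wild-type EpiLC. These are descriptions of the lists without a test.

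Fibroblast identity genes, a list of 18 that includes Prrx1, Twist2, Fap and Vim, were lower in Epi_male and diploid p53-KO EpiSC by their median, as were the matrix genes. This was not particular to them: the medians of the elastic fibre genes in the 5 EpiSC libraries were 10.7%, 15.2%, 8.24%, 4.38% and 1.95% of MEF. Over the 16 identity genes of at least 5 CPM in MEF, the median percent was 11.9% in haEpi1_1 (highest gene 283%), 11% in haEpi5_1, 8.24% in Epi_fema, 2.80% in Epi_male and 2.97% in diploid p53-KO EpiSC. It was 4.62% in haploid ESC, 0.526% in diploid ESC, 2.02% in p53-KO EpiLC and 0.701% in wild-type EpiLC. Their summed level was 429 to 1950 CPM in EpiSC, 540 and 348 in haploid and diploid ESC, 166 and 102 in p53-KO and wild-type EpiLC, and 7050 in MEF. In diploid ESC 5 of the 18 were at 0, among them Prrx1, Twist2 and Fap, and Vim made up 319 of the 348 CPM. Prrx1, a fibroblast transcription factor, was at 61.6, 59.6, 54.1, 12.9 and 2.98 CPM in the EpiSC libraries and at 30.4 CPM in haploid ESC. It was picked after its values were seen and does not stand for the list. In diploid p53-KO EpiSC another gene of the list reached 124% of MEF. By edgeR 4 of the 18 rose in EpiSC against EpiLC (Cd248, Axl and Vim among them) and 1 against ESC (Axl), beside 3.77% and 6.86% of all genes. DESeq2 called 8 and 3 of them higher, beside 8.76% and 9.18%. The part of these fibroblast transcripts in the matrix results was not tested.

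Markers of other cells that make matrix were also read. Smooth muscle and pericyte genes (7 genes) summed to 53.9 to 325 CPM in EpiSC, 163 and 11.2 in haploid and diploid ESC, 12.7 and 22.4 in p53-KO and wild-type EpiLC and 2350 in MEF, mostly Acta2 (1960 CPM in MEF). Macrophage genes (6 genes) summed to 15.5 to 96.4 CPM in EpiSC, 8.84 and 22.5 in ESC, 7.87 and 13.2 in EpiLC and 1120 in MEF. By edgeR 3 of the 6 were higher in EpiSC than in ESC, beside 6.86% of all genes tested. They were Lyz2 (23.8 ± 24.9 against 0.200 ± 0.282 CPM, SD, n = 5 and 2), Adgre1 (2.86 ± 3.08 against 0) and C1qa (0.266 ± 0.168 against 0). C1qa lay near the 3-count limit. Endothelial genes (8 genes) summed to 3.17 to 17.8 CPM in EpiSC and to 59.5 and 176 in haploid and diploid ESC. They summed to 89.5 and 32.7 CPM in p53-KO and wild-type EpiLC and to 27.9 in MEF. In ESC most of the sum was Pecam1 (109 ± 80.2 CPM, SD, n = 2). The endoderm list of 14 genes summed to 1160 to 1790 CPM in EpiSC, 924 and 1100 in ESC, and 573 and 578 in EpiLC. It summed to 4810 CPM in MEF, so its level does not mark endoderm alone. Its transcription factor Gata6 was at 0.622 to 1.31 CPM in EpiSC. By edgeR 1 of the 12 endoderm genes tested was higher in EpiSC than in ESC (Lamb1, 431 ± 73.8 against 82.4 ± 60.3 CPM, SD, n = 5 and 2) and 2 were lower (Lama1 and Gata4). Of all genes tested 16.9% were called there in either direction. Against EpiLC 2 of the 12 endoderm genes were higher, the basement membrane collagens Col4a1 (290 ± 102 against 32.3 ± 14.9 CPM) and Col4a2 (219 ± 86.8 against 12.0 ± 5.69 CPM), and Gata4 was lower. In that comparison 9.65% of all genes were called in either direction. The part of these lists in the matrix results was not tested.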

How the data were processed

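RNA was sequenced from 10 mouse libraries of 129SV EpiSC, EpiLC, ESC and MEF. Deposited counts are whole-number counts per gene from the authors; the submitters' processing notes name HISAT2 2.0.5, the mm10 build and featureCounts 1.5.0-p3. Deposited FPKM equalled those counts divided by exon length and 1 constant per library (largest relative deviation 1.66e-08), and these constants lay within 1.16% of DESeq2 size factors. Nothing in the sources used here says whether counting used the strand.

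CPM were scaled with TMM factors over all genes. Cell types were compared with edgeR 4.0.16 (R 4.3.3; filterByExpr, TMM, quasi-likelihood F test), fitted over all 10 libraries with 1 mean per cell type, and haploid p53-KO with wild-type EpiSC over the 5 EpiSC libraries. P-values were adjusted over all genes tested (Benjamini-Hochberg), with 0.05 as the threshold, and fold changes are given with standard errors. The fits were tested on simulated data with a fixed spread for all genes, without the wide gaps between libraries of the same cell type seen here. They recovered 68% to 90% of changes of 3 on the log2 scale and 1% to 13% of changes of 1. A gene not called may thus still differ. Alternatives were DESeq2 1.42.0, RLE factors, no filter on low counts, and limma 3.58.1 on log2(FPKM + 1) and log2(FPKM + 0.1). Others were each library left out, MEF left out (the same fit as leaving out its library), and p53 label and ploidy as terms. Percent-of-MEF values and library pairs have no test; exact 95% intervals there cover counting error only, and a count of 0 is given the limit of 3 counts. Total counts were 15862113 to 18814003 per library, and after scaling with TMM factors that limit is 0.150 to 0.194 CPM.

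The 10 genes and 13 further lists (170 of 171 entries matched) were chosen with earlier results of these data known. Genes named are those 10 and up to 3 called genes per list and comparison with the largest fold change. Also named are the 10 genes most like the median profile, with predicted and clone-named genes set aside. List genes whose levels are given as markers were picked after their values were seen. Promoters came from RefSeq (GRCm38.p6). Other per-sample columns in the tables numbered 0.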

Additional observations from a re-analysis of the deposited data

How the results depend on the processing

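Across alternatives other than leaving out a library, single-gene results kept their direction and side of the threshold in 386 cases. They gained a call in 33, lost a call in 10 and reversed in 6. Leaving out 1 library gave 519, 30, 39 and 27. The alternative with MEF left out is the same fit as leaving out the MEF library, so its results stand in both tallies. For EpiSC versus ESC (0 of 10 called), DESeq2 called 2 genes, no filter on low counts 3, and p53 label and ploidy as terms 1; leaving out 1 library gave 0 to 5. For EpiLC versus ESC (0), no filter gave 1 and leaving out 1 library 0 to 1. For EpiSC versus EpiLC (2), DESeq2 gave 4, no filter 8 and leaving out 1 library 0 to 4; p53 label and ploidy as terms gave 2, with Fbn1 in place of Fn1. Against MEF, DESeq2 gave 4 for EpiSC (6) and 5 for ESC (6), and limma on log2(FPKM + 0.1) 6 for EpiLC (8) and 5 for EpiSC. Leaving out 1 library gave 4 to 9 for EpiSC versus MEF, 4 to 10 for EpiLC versus MEF, 4 to 9 for ESC versus MEF and 0 to 3 for haploid p53-KO versus wild-type EpiSC, where no filter gave 2. Counts over all genes also moved by more than 1.5 times: EpiLC versus ESC had 90 by edgeR, 960 by DESeq2, 676 without the filter, 310 and 246 by limma, 28 with p53 label and ploidy as terms and 1 to 216 on leaving out 1 library; EpiSC versus EpiLC had 2036 by edgeR, 3589 by DESeq2, 3162 without the filter and 1297 with those terms; EpiSC versus ESC had 3573 by edgeR and 2239 with those terms.

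Reversals outside the left-out libraries were all of small or wide estimates. In EpiSC versus ESC they were Lox (-0.04 by DESeq2 and with RLE factors) and Fn1 (-0.16 with p53 label and ploidy as terms). The others were Thbs1 in EpiLC versus ESC (0.39 by limma on log2(FPKM + 0.1)) and Aspn in EpiSC versus EpiLC (0.05 with those terms). With MEF left out, which is also a left-out library, Lox in EpiSC versus ESC was at -0.02. On leaving out 1 library, log2 fold changes in EpiSC versus ESC ran from -0.14 to 0.77 for Fn1, -1.01 to 13.85 for Lox, -0.02 to 10.71 for Thbs1 and -0.72 to 12.10 for Postn. In EpiLC versus ESC they ran from -2.23 to 1.17 for Fbn1, -7.27 to 10.17 for Lox, -10.35 to 11.93 for Tnc, -4.32 to 6.42 for Thbs1, -11.87 to 8.58 for Postn, -0.70 to 10.63 for Dcn and -2.52 to 3.54 for Lum. In EpiSC versus EpiLC Aspn ran from -0.81 to 0.68, and in haploid p53-KO versus wild-type EpiSC Fbn1 ran from -0.14 to 1.58, Thbs1 from -0.36 to 0.59 and Sparc from -0.07 to 0.88. Fitted values against a group at 0 counts depend on the prior count and are no bounds. The cause of these changes was not tested.

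Without TMM factors the median percent of MEF over the 10 genes was 11.9% in haEpi1_1, 17.0% in haEpi5_1, 9.01% in Epi_fema, 3.37% in Epi_male, 4.05% in diploid p53-KO EpiSC, 9.68% in haploid ESC and 1.43% in p53-KO EpiLC; by deposited FPKM it was 9.10%, 13.7% and 6.76% in the first 3. Leaving out the factors shifted the percent by -0.0172 to 0.381 on the log2 scale. No paired analysis was possible because the labels give the libraries no shared replicate numbers. MEF is 1 library, so its spread rests on the other cell types; EpiLC and ESC rest on 2 libraries each, which differ in p53 label or in ploidy.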
